A study of Mus musculus with 8 samples.

Results

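The genes described are the neurotrophin receptors *Ntrk2*, *Ntrk3* and *Ngfr* and the neural crest transcription factors *Sox10*, *Tfap2a* and *Tfap2b*, measured by RNA-seq in the outflow tract (OFT) of the mouse heart at embryonic day 11.5. They were taken by symbol from the table of 14608 genes, and the set of 6 genes was chosen with the difference between the genotypes already known, so that difference is given below as a description and not as a test. Of the 6 genes, 5 had values in the table. *Tfap2b* was not analysed here.

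The OFT is the vessel that leaves the embryonic heart and is later divided into the aorta and the pulmonary trunk, and its valves and septum form partly from cells that migrate in from the neural crest. Neurotrophins are secreted growth factors that bind TRK receptor tyrosine kinases and, with lower selectivity, the receptor encoded by *Ngfr*. Loss of the receptor encoded by *Ntrk3* or of its ligand in mice is known to cause heart defects that include the OFT. SOX10 marks migrating neural crest and its glial derivatives, and the AP-2 factor encoded by *Tfap2a* acts in early neural crest and in surface ectoderm.

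The data hold 8 libraries of polyA RNA from the OFT, with 4 labelled control and 4 labelled Mib1V943F/+ Gata6STOP/+. The mutant carries 1 copy of a missense allele of *Mib1*, an E3 ubiquitin ligase required for NOTCH ligand activity, and 1 copy of a null allele of *Gata6*, a transcription factor gene. Both are germline alleles, so they are present in all cells of the OFT. The genotype and strain of the controls are given no further than the word control, and each library is a pool, for which the labels give 3 individuals. The study's methods give other numbers, both of individuals per pool and of pools per genotype, so what stands behind each of the 4 libraries is not certain. Whether the libraries of a genotype came from separate litters is not stated, so their spread may be partly technical.

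The values are CPM (reads scaled to a common library size by the TMM method). The libraries hold between 10669420 reads (control replicate 2) and 30469165 reads on the listed genes, and 1 read was worth between 0.0325 and 0.0948 CPM. The mutated gene *Gata6* averaged 262 ± 18.5 CPM in control and 249 ± 36.1 CPM in mutant libraries, and *Mib1* 122 ± 15.6 and 128 ± 6.62 CPM (SD, n = 4 each). Neither gene separated the groups, so every direction below rests on the labels. Mutant replicate 2 stood farthest from its group, with a median absolute log2 deviation from the other 3 libraries of 0.179, against 0.0841 to 0.135 in the other libraries. For some of the genes, the log2 difference is also given without this library. In tissue measured in bulk, fewer cells of a type and less RNA per cell cannot be told apart.

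The promoter-side sequence of the genes is shown because it places the measured transcripts and lets the windows be compared. RefSeq windows on GRCm38.p6 were matched for 4 of the 6 genes, and the 250 bases before the start are printed 5′ to 3′ on the strand of the gene. The window of *Ntrk2* (chr13:58806319-58806568, plus strand), that of *Ngfr* up to the first annotated exon base (213 bases, chr11:95587736-95587948, minus strand) and the upstream one of the windows of *Tfap2a* (chr13:40734921-40735170, minus strand) read as follows, with motif matches in capitals.
*Ntrk2*: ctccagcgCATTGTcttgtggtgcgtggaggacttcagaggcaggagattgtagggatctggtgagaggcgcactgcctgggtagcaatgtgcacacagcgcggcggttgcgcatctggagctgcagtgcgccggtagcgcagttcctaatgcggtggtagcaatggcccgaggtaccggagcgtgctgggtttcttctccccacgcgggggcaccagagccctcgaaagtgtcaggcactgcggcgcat
*Ngfr*: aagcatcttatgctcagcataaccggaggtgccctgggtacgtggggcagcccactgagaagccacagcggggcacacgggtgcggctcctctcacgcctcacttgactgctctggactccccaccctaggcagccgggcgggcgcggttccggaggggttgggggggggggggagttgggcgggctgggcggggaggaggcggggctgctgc
*Tfap2a*: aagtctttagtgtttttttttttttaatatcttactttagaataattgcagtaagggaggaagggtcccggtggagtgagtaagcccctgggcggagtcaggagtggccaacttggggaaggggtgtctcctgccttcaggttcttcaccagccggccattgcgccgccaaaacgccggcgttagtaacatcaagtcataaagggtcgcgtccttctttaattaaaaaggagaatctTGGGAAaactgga

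The motifs searched on both strands were GCCNNNGGC for AP-2 factors, the GATA factor motifs AGATAA or else TGATAA and, ending in another base, AGATAG or else TGATAG, the motif TGGGAA for RBPJ (the DNA-binding factor of the NOTCH pathway) and the SOX factor motifs ACAAAG or else ACAATG. No matches overlapped. The window of *Ntrk2* held 1 SOX match, on the minus strand, and the printed window of *Tfap2a* held 1 RBPJ match. No match of the AP-2 or GATA letters listed above was found in the windows of the matched genes. Other spacings of the AP-2 motif were not searched. Of all 32851 windows, 13.7% held an AP-2, 26.5% a GATA, 21.6% an RBPJ and 25.2% a SOX match, so these matches are common and describe letters only. The GC content of the 250 bases was 62.8% for *Ntrk2*, 70.4% for *Ngfr* (37 exon bases included) and 47.6% for *Tfap2a*, and the median of all windows was 52.4%.

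*Ntrk2* (ENSMUSG00000055254) encodes TRKB, the receptor of BDNF and of the product of *Ntf5*, and lies on GRCm38 at chr13:58806569-59133970 on the plus strand. Control libraries 1 to 4 held 13.7, 11.6, 12.7 and 14.3 CPM of *Ntrk2*, and mutant libraries 1 to 4 held 21.4, 16.7, 21.8 and 21.5 CPM. All 4 mutant libraries were above all 4 control ones, and the lowest of them, replicate 2, stood apart from the other 3. The means were 13.1 ± 1.21 and 20.3 ± 2.45 CPM (SD, n = 4), a ratio of 1.56. On the scale of log2(CPM + 0.5), the mutant was 0.62 higher (standard error 0.11, 95% interval 0.38 to 0.86), and 0.71 higher without mutant replicate 2. These values rest on 122 to 379 reads per control and 453 to 670 reads per mutant library. The annotation lists coding transcripts of 821 residues and others of 466 to 492 residues, beside a fragment of 50 residues. The long and shorter ones are the full-length and the truncated forms of TRKB, and the truncated forms lack the kinase. A value per gene does not say which form was measured.

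*Ntrk3* (ENSMUSG00000059146), the receptor gene TRKC, lies at chr7:78175959-78738012 on the minus strand. Control libraries 1 to 4 held 21.5, 12.7, 17.2 and 17.3 CPM of *Ntrk3*, and mutant libraries 1 to 4 held 30.4, 23.1, 21.4 and 19.6 CPM. The groups overlapped, since control replicate 1 was above mutant replicates 3 and 4. The means were 17.2 ± 3.59 and 23.6 ± 4.77 CPM (SD, n = 4), and the log2 difference was 0.45 (standard error 0.16, 95% interval 0.10 to 0.80). Its coding transcripts also include long forms, from 825 to 864 residues, and a shorter form of 612 residues, beside fragments of 11 to 86 residues, and the values do not separate them.

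*Ngfr* (ENSMUSG00000000120), the receptor gene that binds all neurotrophins, lies at chr11:95568818-95587735 on the minus strand and has 1 annotated transcript. Control libraries 1 to 4 held 17.9, 22.6, 20.2 and 20.1 CPM of *Ngfr*, and mutant libraries 1 to 4 held 27.0, 14.9, 29.6 and 23.9 CPM. Mutant replicate 2 was the lowest of all 8 libraries, while the other 3 mutant libraries were the highest. The means were 20.2 ± 1.89 and 23.8 ± 6.41 CPM (SD, n = 4). The log2 difference of *Ngfr* was 0.19 (standard error 0.17, 95% interval -0.18 to 0.57), and it was 0.40 without mutant replicate 2. It was 0.12 without mutant replicate 1 and 0.078 without mutant replicate 3, so its size depends on several of the mutant libraries.

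*Sox10* (ENSMUSG00000033006), at chr15:79154908-79165240 on the minus strand, encodes the transcription factor that maintains neural crest progenitors and specifies glia. Control libraries 1 to 4 held 1.91, 4.27, 2.42 and 2.77 CPM of *Sox10*, and mutant libraries 1 to 4 held 2.05, 1.10, 1.89 and 2.89 CPM. The groups overlapped, with control replicate 2 the highest and mutant replicate 2 the lowest library. The means were 2.84 ± 1.01 and 1.98 ± 0.734 CPM (SD, n = 4), with 30 to 76 reads behind each value. The log2 difference was -0.43 (standard error 0.26, 95% interval -0.99 to 0.13), and without mutant replicate 2 it was -0.24.

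*Tfap2a* (ENSMUSG00000021359), at chr13:40715302-40738376 on the minus strand, encodes an AP-2 transcription factor that acts when the neural crest is induced. Control libraries 1 to 4 held 1.26, 2.66, 1.29 and 1.93 CPM of *Tfap2a*, and mutant libraries 1 to 4 held 2.52, 1.55, 1.95 and 1.68 CPM. The mutant libraries all lay within the range of the control ones. The means were 1.78 ± 0.657 and 1.92 ± 0.433 CPM (SD, n = 4), and the log2 difference was 0.11 (standard error 0.22, 95% interval -0.37 to 0.60) on 28 to 60 reads per library, and 0.19 without mutant replicate 2. The annotation places exons of 3 antisense genes over those of *Tfap2a*. The library kit keeps strand, but the strand setting of the counting is not given in the sources used here, so reads of these genes cannot be told apart from its own.

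**Figure D1:**
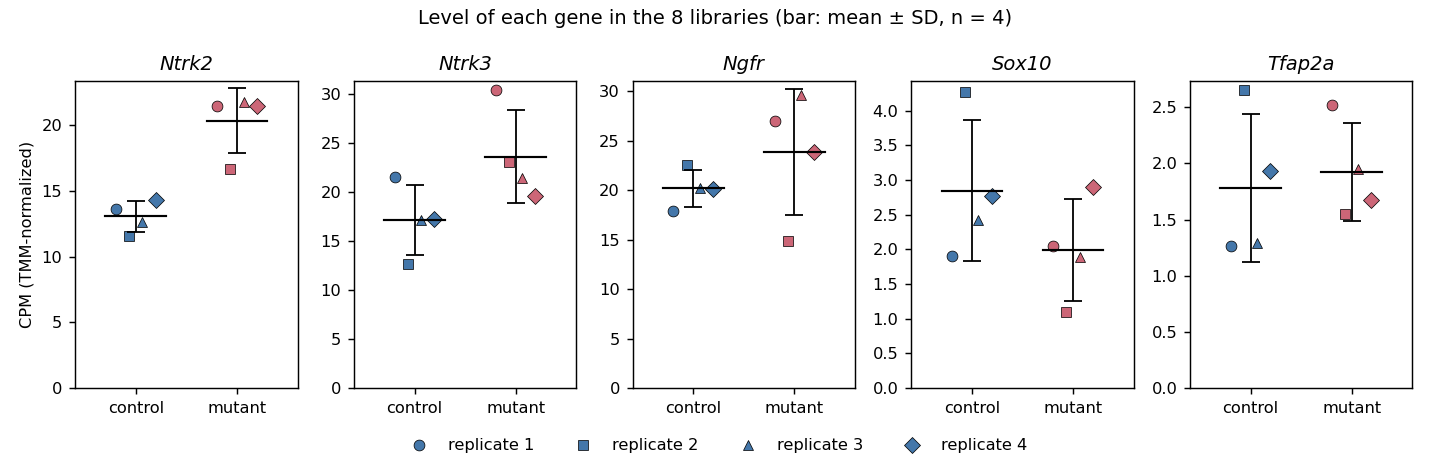
CPM (vertical axes, linear and starting at 0, a separate scale for each gene) of the 5 genes in the libraries labelled control and mutant, with marker shapes for replicate numbers, horizontal lines for means and bars for the SD (n = 4). *Ntrk2* is the gene whose groups do not overlap, and mutant replicate 2 (squares) is the lowest mutant library for 4 of the 5 genes.

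Of the 5 genes, the mutant libraries did not overlap the control ones for 1 gene, *Ntrk2*, where 3.20% of all genes lay wholly above and 3.90% wholly below. In limma, with Benjamini-Hochberg adjustment over all 14608 genes, 0 of the 5 genes and 0% of all genes passed an adjusted p-value of 0.05, while before adjustment 5.45% of all genes passed as higher and 6.62% as lower. On reads recovered from the CPM, the edgeR likelihood ratio test called 107 genes, 0.178% of all genes higher and 0.554% lower. *Ntrk2* was the 1 gene of the 5 among them. As the genes were picked on this contrast, nothing is read from these counts.

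Levels can be compared between genes only per length. Per kilobase of annotated exon, *Ngfr* was at 6.39 CPM per kb on average over the 8 libraries, *Ntrk2* at 0.865, *Sox10* at 0.791, *Ntrk3* at 0.676 and *Tfap2a* at 0.378 CPM per kb. *Ngfr* was the highest of the 5 genes in all 8 libraries, between 4.32 and 8.59 CPM per kb, and it was above 53.0% of all genes on this scale, while *Ntrk2* was above 12.6% of them. The order of the middle genes was not settled, since *Sox10* was above *Ntrk2* in 3 of 4 control and 0 of 4 mutant libraries. With the longest coding transcript as the length, *Ngfr* was at 6.39, *Ntrk2* at 1.91, *Ntrk3* at 1.03, *Sox10* at 0.868 and *Tfap2a* at 0.531 CPM per kb, so *Ntrk3* and *Sox10* changed places.

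The spread between libraries of a genotype exceeded the counting error in 10 of 10 groups of the 5 genes. For *Ntrk2* the coefficient of variation was 9.23% in the control and 12.1% in the mutant libraries, where counting alone gives 6.46% and 4.37%. *Ngfr* was as even as *Ntrk2* in the control libraries, at 9.37%, but reached 26.9% in the mutant ones. *Sox10* varied by 35.7% and 37.0%, and counting gives 13.4% and 14.7%. The biological coefficient of variation fitted by edgeR was 0.110 for *Ntrk2*, 0.158 for *Ntrk3*, 0.170 for *Ngfr*, 0.291 for *Sox10* and 0.240 for *Tfap2a*, beside a median of 0.106 over all genes.

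The variation within each genotype was not used to choose the genes. Each library was therefore set against the mean of its group, which asks whether the genes vary together apart from genotype. In mutant replicate 2, *Ngfr* was -0.62, *Sox10* -0.58, *Ntrk2* -0.27 and *Tfap2a* -0.23 from the group mean on the log2 scale, each the lowest of its group, while *Ntrk3* was at -0.01. In control replicate 2, the most shallow library, *Sox10* was 0.56, *Tfap2a* 0.51 and *Ngfr* 0.16 above the mean, each the highest of its group, and *Ntrk2* at -0.16 and *Ntrk3* at -0.40 were the lowest. Control replicate 1 showed the opposite order, with *Ntrk3* at 0.34 and *Sox10* at -0.43.

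**Figure D2:**
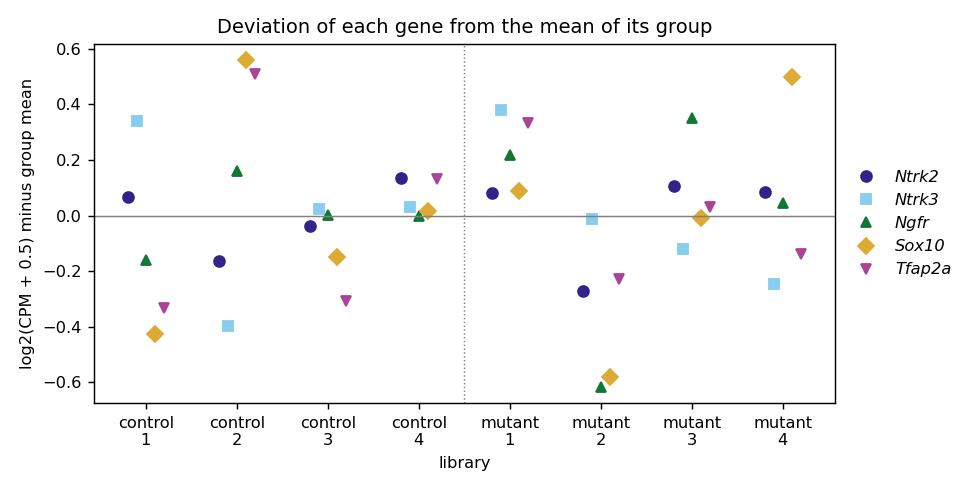
Difference of each library from the mean of its group (vertical axis, log2(CPM + 0.5) units) for the 5 genes in the 8 libraries (horizontal axis), with 1 marker per gene and the zero line at the group mean. *Ngfr*, *Sox10* and *Tfap2a* are above zero in control replicate 2 and below zero in mutant replicate 2.

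Over the 8 libraries with the group means removed, 10 pairs of genes were compared by exact permutation (two-sided, over all reorderings within the groups), and 0 pairs passed an adjusted p-value of 0.05. For some pairs r is also given without the 2 libraries farthest from the median CPM of the gene named first. *Ngfr* and *Sox10* had r = 0.68 (exact permutation p = 0.108, adjusted p = 0.359) and rho = 0.64 (exact permutation p = 0.0972, adjusted p = 0.324), and r was 0.61 without mutant replicates 2 and 3. *Sox10* and *Tfap2a* had r = 0.66 (exact permutation p = 0.106, adjusted p = 0.359) and rho = 0.79 (exact permutation p = 0.0382, adjusted p = 0.269). Their r was 0.04 without control replicate 2 and mutant replicate 2, so that relation rests on these libraries. *Ngfr* and *Tfap2a* had r = 0.56 (exact permutation p = 0.0868, adjusted p = 0.359), rho = 0.62 (exact permutation p = 0.0538, adjusted p = 0.269) and r = 0.88 without mutant replicates 2 and 3. Control replicate 2 stayed in for the reduced r of *Ngfr* with *Sox10* and with *Tfap2a*. Those values therefore cannot show whether the relations rest on it. *Ntrk3* and *Sox10* went in opposite directions, at r = -0.61 (exact permutation p = 0.146, adjusted p = 0.365), rho = -0.40 (exact permutation p = 0.363, adjusted p = 0.767) and r = -0.79 without control replicate 2 and mutant replicate 1. With *Ntrk2*, the r of *Ngfr* was 0.63 (exact permutation p = 0.215, adjusted p = 0.431).

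The genes whose deviations were most like those of each gene are given as a description, over the same 8 libraries and among the 11651 genes that averaged 5 CPM or more. For *Ntrk2* they were *Dcaf1* (r = 0.99) and *Zfp202* (r = 0.98). For *Ntrk3* they were *Zfp507* (r = 0.97), *Trmt2b* (r = 0.95) and *Gm16973* (r = 0.95). For *Ngfr* they were *Plppr2* (r = 0.99), *Dhx8* (r = 0.98) and *Zfp553* (r = 0.98). For *Sox10* they were *Tram2* (r = 0.97), *Wnk4* (r = 0.97) and *Klhl30* (r = 0.97), and for *Tfap2a* *Gm48529* (r = 0.98), *Nfkbib* (r = 0.97) and *Eral1* (r = 0.97). An r of at least 0.9 was reached by 318 genes for *Ngfr*, 78 for *Ntrk2*, 58 for *Tfap2a*, 47 for *Sox10* and 22 for *Ntrk3*. The 8 points share libraries and depth, and nothing on shared function is read from these values.

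Around the receptors, the list of neurotrophins, their receptors and the sortilin family held values for 9 of 12 genes. Without *Ntrk2*, *Ntrk3* and *Ngfr*, before adjustment 2 of the remaining 6 genes passed as higher (5.45% of all genes) and 1 as lower (6.62% of all genes), and 0 passed after adjustment in limma or in the likelihood ratio test. Among the ligands, control libraries 1 to 4 held 6.77, 6.45, 6.33 and 5.78 CPM of *Ntf5*, which encodes a ligand of TRKB, and mutant libraries 1 to 4 held 7.98, 11.2, 9.59 and 7.08 CPM. Its groups did not overlap, as for *Ntrk2* and for 3.20% of all genes in that direction. The log2 difference of *Ntf5* was 0.45 (standard error 0.14, limma adjusted p = 0.284), and 0.34 without mutant replicate 2. *Bdnf*, the other TRKB ligand, was at 5.68 ± 0.853 and 7.54 ± 2.86 CPM (SD, n = 4), and the groups overlapped. Its highest value, 11.6 CPM, was in mutant replicate 2, the library where *Ntrk2* was lowest of its group, and its log2 difference went from 0.33 to 0.11 without that library. *Ntf3*, the ligand of TRKC, was at 2.51 ± 0.779 and 2.82 ± 0.871 CPM (SD, n = 4), a log2 difference of 0.14, or 0.25 without that library.

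The sortilin family, which sorts neurotrophin receptors and binds neurotrophin precursors, held both directions. Control libraries 1 to 4 held 8.18, 7.59, 6.01 and 8.79 CPM of *Sorcs1*, and mutant libraries 1 to 4 held 10.8, 12.03, 9.59 and 10.4 CPM, a log2 difference of 0.47 (standard error 0.13, limma adjusted p = 0.254). *Sorcs2* was at 51.2 ± 1.52 and 43.1 ± 4.52 CPM (SD, n = 4), with a log2 difference of -0.25 (standard error 0.08, limma adjusted p = 0.298). The groups of *Sorcs1* and of *Sorcs2* did not overlap, where 3.20% of all genes lay wholly above and 3.90% wholly below. *Sort1*, at 233 ± 22.7 and 215 ± 16.5 CPM (SD, n = 4), overlapped, with a log2 difference of -0.11, or -0.065 without mutant replicate 2.

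**Figure D3:**
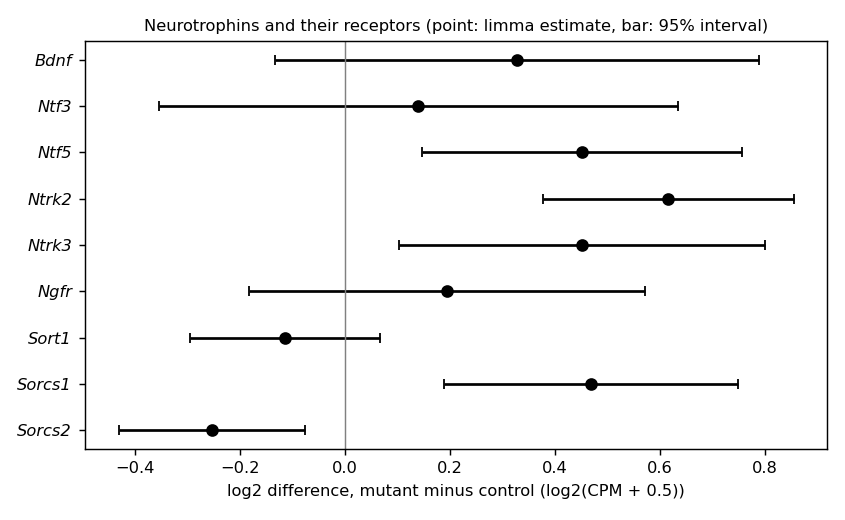
Log2 difference of mutant minus control (horizontal axis, log2(CPM + 0.5) units) for the 9 genes of the neurotrophin list with values, with points for the limma estimate and bars for the 95% interval (4 libraries per group). *Ntrk2* is farthest to the right at 0.62, and *Sorcs1*, *Ntrk3* and *Ntf5* lie between 0.45 and 0.47.

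Inside the cell, TRK and *Ngfr* receptors signal through adaptors and interacting proteins. Of the 20 such genes listed, 19 had values, 10 above and 9 below 0, with 0 at an unadjusted p-value under 0.05 and a median log2 difference of 0.01, beside 0.00105 for all genes. The most abundant was *Maged1*, which encodes a protein that binds the *Ngfr* receptor, at 734 ± 29.3 and 758 ± 39.2 CPM (SD, n = 4).

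Around *Sox10* and *Tfap2a*, the list of neural crest transcription factors held values for 13 of 20 genes, of which 9 were above and 4 below 0 and 0 had an unadjusted p-value under 0.05. The median log2 difference was 0.05, and the most abundant gene was *Ets1*, at 114 ± 10.1 and 118 ± 4.09 CPM (SD, n = 4). The early specifiers *Foxd3*, *Pax3*, *Pax7* and *Zic1* were not analysed here. The 6 cofactors and antagonists of AP-2 factors had values, 1 above and 5 below 0, and 0 had an unadjusted p-value under 0.05. *Ep300*, the most abundant of these, was at 121 ± 3.40 and 113 ± 8.52 CPM (SD, n = 4).

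Neural crest derivatives in the OFT include glia, neurons and mesenchyme. Of 18 genes of Schwann cell precursors and glia, 11 had values, including *Sox10* and *Ngfr*, and the glial genes *Fabp7* and *S100b* were not analysed here. Before adjustment 2 of them passed as higher and 1 as lower (5.45% and 6.62% of all genes). The likelihood ratio test called *Pmp22*, a myelin protein gene, higher and *Ednrb*, an endothelin receptor gene, lower (0.178% and 0.554% of all genes). *Pmp22* was at 83.5 ± 2.81 and 106 ± 10.7 CPM (SD, n = 4), with a log2 difference of 0.34 (adjusted p = 0.0200 in edgeR, 0.204 in limma). *Ednrb* was at 61.0 ± 19.7 and 36.4 ± 4.55 CPM (SD, n = 4), with a log2 difference of -0.69 (adjusted p = 0.0247 in edgeR, 0.253 in limma), and its groups overlapped. *Cdh19*, a glial cadherin gene, was at 3.92 ± 0.998 and 5.24 ± 0.255 CPM (SD, n = 4), with a log2 difference of 0.40 (limma adjusted p = 0.389). *Itga4* was the most abundant gene of the list, at 151 ± 11.9 and 146 ± 8.52 CPM (SD, n = 4). The summed level of the glial list ran from 428 to 461 CPM in the control and from 421 to 458 CPM in the mutant libraries.

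Of 20 genes of autonomic neurons, 10 had values, and *Phox2a* and *Dbh*, which mark these neurons, were not analysed here. Of the 10 genes, 7 were above and 3 below 0, with a median log2 difference of 0.02. Before adjustment 2 of the 10 passed as higher and 0 as lower (5.45% and 6.62% of all genes). Their summed level overlapped, at 93.3 to 113 CPM in the control and 93.8 to 128 CPM in the mutant libraries. *Stmn2*, a neuronal tubulin-binding protein gene, was at 12.6 ± 2.21 and 19.1 ± 3.83 CPM (SD, n = 4). Its log2 difference was 0.58 (adjusted p = 0.0437 in edgeR, 0.234 in limma), and 0.46 without mutant replicate 2. *Elavl4*, a neuronal RNA-binding protein gene, was at 2.73 ± 0.865 and 4.43 ± 0.384 CPM (SD, n = 4; log2 difference 0.65, adjusted p = 0.180 in edgeR), while *Tubb3*, the most abundant, was at 27.8 ± 1.86 and 26.6 ± 5.80 CPM (SD, n = 4; log2 difference -0.082, and 0.036 without mutant replicate 2). The groups of *Stmn2* and *Elavl4* did not overlap, as for *Ntrk2* and for 3.20% of all genes in that direction. The part of these genes in the values of *Ntrk2* was not tested.

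Of 20 genes of neural crest derived mesenchyme, 19 had values. Before adjustment 2 of them passed as higher and 1 as lower (5.45% and 6.62% of all genes), and nothing is read from counts this small. *Rgs5*, a regulator of G protein signalling found in pericytes, was at 243 ± 22.2 and 362 ± 58.1 CPM (SD, n = 4; log2 difference 0.57, adjusted p = 0.00142 in edgeR, 0.142 in limma). *Cdh11*, a mesenchymal cadherin gene, was at 251 ± 20.7 and 308 ± 48.1 CPM (SD, n = 4; log2 difference 0.29, or 0.19 without mutant replicate 2, limma adjusted p = 0.331). *Gja1*, a gap junction gene, was at 174 ± 27.8 and 124 ± 20.3 CPM (SD, n = 4; log2 difference -0.49, adjusted p = 0.0504 in edgeR). The melanocyte list had 3 of 7 genes with values, and its pigment genes *Dct*, *Pmel*, *Tyr* and *Tyrp1* were not analysed here. The groups of its summed level, 93.9 to 143 CPM against 77.0 to 91.9 CPM, did not overlap. *Ednrb*, also in the glial list and with overlapping groups of its own, was its called gene. *Ednrb* made 61.0 of a mean sum of 114 CPM in control and 36.4 of 84.8 CPM in mutant libraries, so much of the sum is this gene.

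Without mutant replicate 2, 0 neural crest transcription factors passed as higher and 0 as lower before adjustment. The glial list held 3 and 1, with *Ngfr* among the 3, and 2 and 1 without *Sox10* and *Ngfr*. In the same setting autonomic neurons held 3 and 0 and the mesenchyme 4 and 1. Of all genes, 3.64% passed as higher and 5.46% as lower.

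Markers of other cells were set beside the 5 genes. *Tfap2a* is also expressed in surface ectoderm, of which 4 of 15 listed markers had values and *Epcam*, *Cdh1* and *Trp63* were not analysed here, and the sums of 152 to 178 CPM and 155 to 164 CPM overlapped. Of these markers, 0 passed as higher and 1, *Perp*, as lower before adjustment (5.45% and 6.62% of all genes). *Perp* was at 65.0 ± 1.98 and 55.8 ± 3.78 CPM (SD, n = 4), with a log2 difference of -0.22 (limma adjusted p = 0.291). Its groups did not overlap, as for 3.90% of all genes in that direction. *Ntrk2* and *Ntrk3* are widely expressed in the nervous system. Of the progenitor markers of the central nervous system 4 of 10 had values, and *Olig2*, *Neurog1* and *Neurog2* were not analysed here. The sums of the 4 genes overlapped (300.5 to 376 CPM and 283 to 348 CPM). *Nes* alone averaged 340 and 323 CPM, so the sums say little of the other markers. Before adjustment 0 of the 4 passed as higher and 1 as lower (5.45% and 6.62% of all genes). The lower one was *Sox3*, at 1.76 ± 0.879 and 0.643 ± 0.425 CPM (SD, n = 4), with a log2 difference of -0.97 (limma adjusted p = 0.331). It reached 1 CPM, the level of the gene filter, only in control replicates 1 to 3 and mutant replicate 4. The filter thus kept *Sox3* mainly through the control libraries, and nothing is read from its direction. The smooth muscle list, with 10 of 10 genes, held 2 genes higher and 3 lower before adjustment. The endothelial list, also with 10 of 10, held 0 higher and 2 lower, where 5.45% and 6.62% of all genes passed. The sums of both lists overlapped between the groups.

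The summed cardiomyocyte markers did not overlap between the groups. Of 15 genes, 11 lay wholly lower in the mutant and 4 overlapped (3.90% of all genes lay wholly lower). All 15 were below 0, with a median log2 difference of -0.34. Of the 15, 14 passed the unadjusted threshold of limma as lower (6.62% of all genes). The likelihood ratio test called 7 of them lower (0.554% of all genes). Their summed level ran from 29192 to 34247 CPM in the control and from 23134 to 27202 CPM in the mutant libraries, and it was lowest in mutant replicate 2, where *Ntrk2*, *Ngfr*, *Sox10* and *Tfap2a* were also lowest of their group. The part of the cardiomyocyte share in the levels of the 5 genes was not tested.

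**Figure D4:**
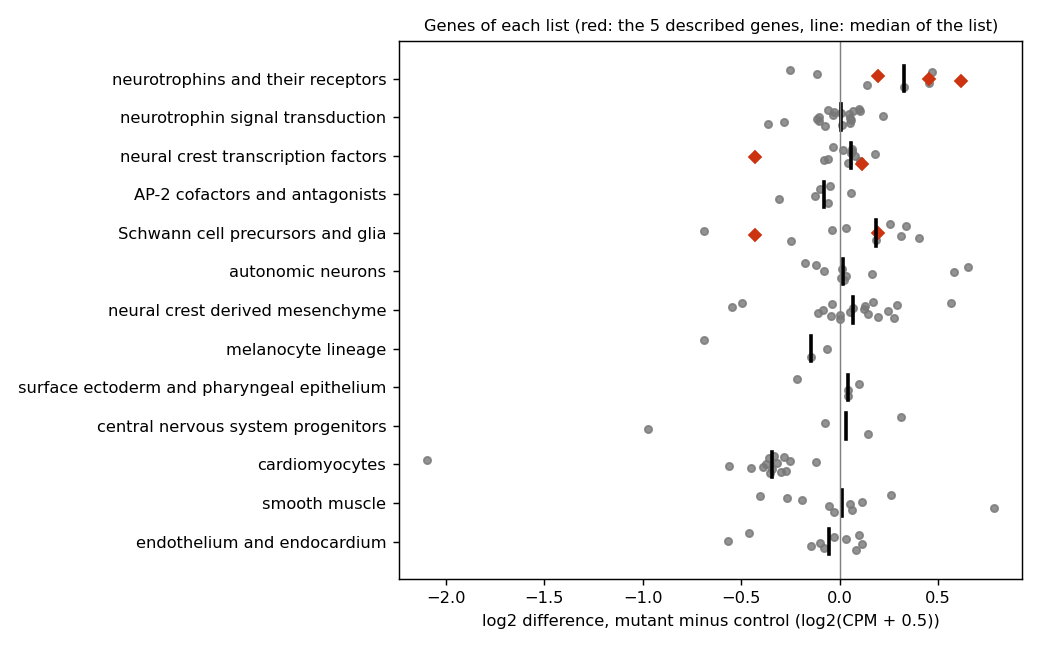
Log2 difference of mutant minus control (horizontal axis, log2(CPM + 0.5) units) of each gene with values in the 13 lists (rows), with a vertical line at the median of each list and red diamonds for *Ntrk2*, *Ntrk3*, *Ngfr*, *Sox10* and *Tfap2a*. The median is -0.34 for cardiomyocytes and 0.33 for neurotrophins and their receptors, a list that holds 3 of the 5 genes themselves.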

How the data were processed

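RNA-seq libraries of OFT were single-end reads of 60 bp, from a directional kit. The authors removed adapters with cutadapt, quantified genes with RSEM on GRCm38, filtered to genes reaching 1 CPM in 3 or more samples, and deposited CPM normalized by TMM in edgeR for 14608 genes. Every listed gene reached 1 CPM in 4 or more libraries, a stricter cut than the 3 samples the authors give. All values came out as whole reads (100%, within 0.01 read), and those reads, 10669420 to 30469165 per library, entered edgeR and DESeq2. *Sox10* and *Tfap2a* rest on 28 to 76 reads per library, which limits their precision. Genotypes were compared in limma 3.58.1 (R 4.3.3) with a trend on log2(CPM + 0.5), which understates changes of low genes, with Benjamini-Hochberg adjustment. edgeR 4.0.16 gave the likelihood ratio test and the quasi-likelihood test, and DESeq2 1.42.0 was run as well. The genes and lists were chosen with earlier results of these data known. Named genes were the 5 genes, the neurotrophin list, the most abundant gene of each list, and *Gata6* and *Mib1*. Named as well were up to 2 rises and 2 falls of each list at an unadjusted p-value under 0.05, and the 3 genes most like each of the 5. Lists of cells outside the neural crest lineage are given mainly as counts. Some genes of the rule and the lists are not reported here and were not replaced. Coordinates are from GENCODE on GRCm38. Same-numbered libraries did not pair: their deviations correlated at r = 0.03, -0.19, 0.03 and -0.05 for replicates 1 to 4.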

Additional observations from a re-analysis of the deposited data

Results flagged for a closer look

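Of 80 groups of 4 libraries examined by Dixon's criterion at the 95% level, 4 held a library far from the other 3, and chance gives about 1 in 20. *Ntrk2* was at 16.7 CPM in mutant replicate 2, below the other 3 mutant-labelled libraries and still above all control-labelled ones. *Ep300* was at 126 CPM in control replicate 1, *Npr3* at 113 CPM in control replicate 1 and *Gja1* at 93.9 CPM in mutant replicate 3.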

How the results depend on the processing

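No log2 difference of the 5 genes changed sign under the alternatives run. Of the other named genes of the neurotrophin and neural crest lists, *Tubb3* did, from -0.082 to 0.036 without mutant replicate 2. limma and the quasi-likelihood test of edgeR called 0 genes (1763 genes had an unadjusted p-value under 0.05 in limma), the likelihood ratio test 107 and DESeq2 194. With the replicate block limma also called 0 genes, and *Ntrk2* had an adjusted p of 0.412. *Ntrk2* passed in the likelihood ratio test and in DESeq2, with a log2 difference of 0.63 in both, and missed the threshold in limma at an adjusted p of 0.124 (0.000409 to 0.412 over the alternatives). Without 1 library at a time, an alternative chosen after seeing the data, the likelihood ratio test called 24 (without control replicate 3) to 217 genes (without control replicate 4), and *Ntrk2* passed each time with 0.58 to 0.71. *Ngfr* ran from 0.12 to 0.42 and passed without mutant replicate 2 alone (adjusted p = 0.0307). As the genes were picked on this contrast, and the reduced fits share most of their libraries, these passes are a description only. In limma without 1 library 0 genes passed each time, and *Ntrk2* ran from 0.56 to 0.71, *Ngfr* from 0.078 to 0.40, *Ntrk3* ran from 0.32 to 0.57, *Sox10* from -0.60 to -0.24 and *Tfap2a* from 0.000408 to 0.28. DESeq2 gave no adjusted p for *Sox10* and *Tfap2a*, and a minimum mean of 5 CPM removed both. The cause of the differences between tests was not tested.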
